A study of Mus musculus with 12 samples.

Results

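The 47 genes described here carry a symbol that begins with Nduf, the gene family of respiratory complex I, and were taken from the 15754 genes of a mouse RNA-seq count table. By textbook role, 36 encode structural subunits of complex I and 8 encode assembly factors (Ndufaf1 to Ndufaf8), which build the complex but are not part of it. The other 3 are Ndufa4, whose protein is bound to complex IV, its paralog Ndufa4l2, and Ndufb1-ps, a transcript annotated as non-coding to which no role is given here. The structural subunits fall into 7 catalytic core subunits, 9 accessory subunits of the matrix arm, 19 accessory subunits of the membrane arm and the acyl carrier protein Ndufab1.

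The cells were Primary_White_Adipocyte cultures, made from epididymal fat (eWAT) stromal cells of male, chow-fed, WT C57BL/6 mice aged 8 weeks. They were induced with insulin at 850 nM, IBMX at 250 µM, and rosiglitazone and dexamethasone at 1 µM each, transfected with RNA 4 days later and harvested on day 7. The groups were a let-7d-5p mimic, a let-7e-5p mimic and a negative control, with 4 libraries each, so that all 12 libraries share the drug cocktail and the transfection reagent. A mimic is a synthetic RNA that raises the level of a microRNA far beyond its natural amount, so the comparison concerns added let-7 and not the cells' own. Each group has 2 libraries in a first run of sample identifiers, which are plain numbers, and 2 in a second run, which begin with a letter; these are called ID run 1 (replicates 1, 2) and ID run 2 (replicates 3, 4). What distinguishes the runs is not stated in the labels. No label describes replicates as independent cultures or mice, and the p-values therefore reflect library-to-library spread that could be technical.

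Complex I takes electrons from NADH at the tip of its matrix arm, passes them through a chain of iron-sulfur clusters to ubiquinone, and pumps protons through its membrane arm. Most of its subunits are encoded in the nucleus, and the core subunits of the membrane arm are encoded in mitochondrial DNA. Assembly factors modify, insert or hold subunits while the arms are joined. In white adipocytes, mitochondria supply acetyl groups and reducing power for lipid synthesis, and the respiratory chain is built up during differentiation.

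MicroRNAs of the let-7 family pair with messages through bases 2 to 8 of the mature strand, the seed. The mature sequences of the 2 microRNAs are shown, from RefSeq (GRCm38.p6), because the seed, in capitals, decides which messages could be paired.
mmu-let-7d-5p: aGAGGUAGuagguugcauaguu
mmu-let-7e-5p: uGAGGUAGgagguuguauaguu
The seeds are identical. The differences, counted from the 5′ end with the let-7d base first, are A1U, U9G and C16U, and none lies in the seed.

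The longest annotated 3′UTR of each gene (GENCODE vM21) was searched for a match to that seed: CTACCTCA (8-mer), its first 7 letters CTACCTC (7-mer-m8), or TACCTCA (7-mer-A1). Of 46 Nduf genes with a 3′UTR, 2 (4.35%) had a match, against 17.0% of the 13547 genes of the table with one. The median 3′UTR length was 235 bases for the Nduf genes and 1190 bases for all genes. Both matches are printed with their flanks, the match in capitals, because they are the only ones in a 3′UTR of the family.
Ndufaf7: acttctttgccttgCTACCTCAtcagag
Ndufv1: ttttctgccctccaTACCTCAcctacg
The Ndufaf7 match, on chromosome 17, is an 8-mer that begins at base 460 of a 3′UTR of 1526 bases, and 2 of the 4 protein-coding transcripts of the gene hold it. The Ndufv1 match, on chromosome 19, is a 7-mer-A1 at base 112 of 195, and 1 of 7 protein-coding transcripts holds it. Anywhere in a protein-coding transcript, 8 of 46 Nduf genes (17.4%) held a match, against 36.0% of 13592 genes. Ndufb7 is among those 8, with its match outside the 3′UTR. A match is a description of letters, and binding was not measured.

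Libraries held 15071299 to 33396316 counts, of which the 47 genes took 0.345% to 0.408%. The lowest count of the Ndufaf8 gene in a library was 193 and that of Ndufa6 was 1050, and all 47 genes passed edgeR's filter on low counts. Principal component 1 of the 12 libraries held 81.9% of the variance. Dicer1 and Hmga2, well-known let-7 targets, served as the check of the mimics. Dicer1 was lower than in the control by 0.52 ± 0.061 (log2, SE) with let-7d and by 0.45 ± 0.061 with let-7e (edgeR quasi-likelihood test, adjusted p = 4.84e-05 and 2.13e-04), and Hmga2 fell by 0.84 ± 0.098 and 0.59 ± 0.095 (edgeR adjusted p = 4.73e-05 and 0.00105). The summed level of 9 measured adipocyte markers was 4670 to 6730 CPM (TMM-scaled counts relative to library size) in ID run 2 and 19300 to 21100 CPM in ID run 1. Macrophage markers, 8 of 8 measured, summed to 24.7 to 123 CPM in ID run 2 and 179 to 263 CPM in ID run 1, and none of 5 lymphocyte markers is in the table analysed. Smooth muscle and pericyte markers summed to 4780 to 6380 CPM in ID run 2 and 2520 to 3990 CPM in ID run 1. Of these 6 markers, edgeR called 4 higher and 2 lower in ID run 2, at log2 differences from -3.81 to 2.43.

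The comparison of the let-7d mimic with the negative control asks how the family responded to added let-7d. Of the 47 genes, 2 rose (Ndufa6 and Ndufaf8) and 3 fell (Ndufb7, Ndufa3 and Ndufaf7). Among all 15754 genes 16.2% were called, 6.41% as higher and 9.81% as lower. Whether the share among Nduf genes differs from that background was not tested. A gene was called at an edgeR adjusted p under 0.05 over all genes, in a fit of all 12 libraries with terms for group and ID run. The median log2 fold change was -0.043 over the 47 genes, with 35 of 47 below 0, and -0.0022 over all genes.

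With the let-7e mimic, 2 of 47 genes rose (Ndufa6 and Ndufs3) and 2 fell (Ndufa3 and Ndufb7), against a background of 9.50% called (3.81% as higher, 5.69% as lower). The median was -0.064, with 38 of 47 below 0, against -0.0019 over all genes. The 2 comparisons use the same 4 control libraries, so their values stand side by side and neither repeats the other independently.

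By role, the core subunits had a median of -0.0088 with let-7d and -0.033 with let-7e. It was -0.054 and -0.077 for the matrix-arm accessory subunits and -0.074 and -0.081 for the membrane-arm accessory subunits. Of the 19 membrane-arm subunits, 17 lay below 0 with let-7d and 18 with let-7e, although only 2 were called in each. The 8 assembly factors had medians of 0.033 and -0.0013, with values from -0.19 to 0.32 and from -0.20 to 0.17. The plot of fold changes by role shows most members within 0.15 of 0.

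**Figure D1:**
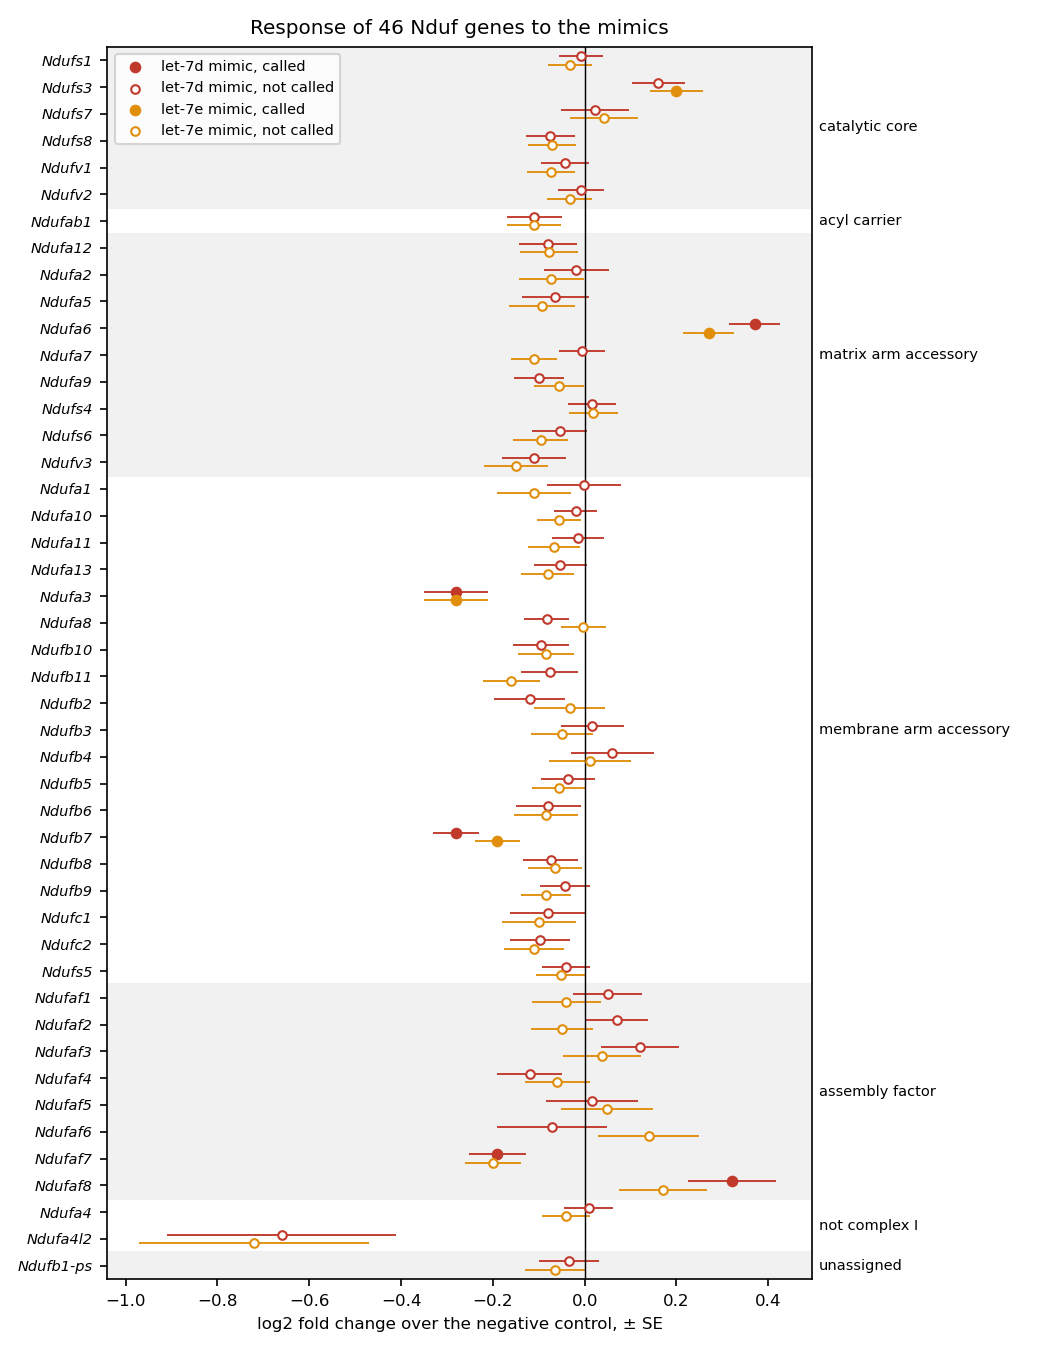
Log2 fold change over the negative control (x axis, ± SE) of 46 Nduf genes for the let-7d mimic (red) and the let-7e mimic (orange), ordered by role; filled points passed an edgeR adjusted p of 0.05. Ndufa6 stands furthest to the right at 0.37 and 0.27, and Ndufa4l2 furthest to the left at -0.66 and -0.72 with the widest errors.

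Ndufa6 encodes a small LYR-motif subunit of the matrix arm that binds the acyl carrier protein (ENSMUSG00000022450, GRCm38.p6 chr15:82350140-82354322, minus strand). In replicates 1 to 4 it stood at 89.0, 87.8, 140 and 123 CPM with let-7d, at 80.2, 81.4, 128 and 121 CPM with let-7e, and at 65.9, 73.0, 105 and 95.1 CPM in the control. In both ID runs, every mimic library lay above both controls of that run. The difference was 0.37 ± 0.055 for let-7d (edgeR adjusted p = 3.00e-04) and 0.27 ± 0.055 for let-7e (edgeR adjusted p = 0.00612). Within ID run 2 it was 0.39 ± 0.077 and 0.31 ± 0.076, and within ID run 1 0.35 ± 0.081 and 0.22 ± 0.080; of these 4 values, let-7e in ID run 1 missed the threshold (edgeR adjusted p = 0.116).

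Ndufb7 encodes a twin-cysteine (CHCH) subunit on the intermembrane-space side of the membrane arm (ENSMUSG00000033938, chr8:83566671-83571626, plus strand). It stood at 54.9, 54.5, 63.4 and 61.6 CPM with let-7d, at 59.2, 57.4, 70.6 and 62.4 CPM with let-7e, and at 68.8, 68.4, 76.8 and 70.9 CPM in the control. The mimic libraries lay below both controls in each ID run, by a wider margin with let-7d than with let-7e. In ID run 2, let-7e replicate 3 at 70.6 CPM was only just below the lower control at 70.9 CPM. It fell by 0.28 ± 0.050 with let-7d (edgeR adjusted p = 0.00123) and by 0.19 ± 0.050 with let-7e (edgeR adjusted p = 0.0240). The difference between the mimics was -0.091 ± 0.050 and was not called (edgeR adjusted p = 0.607). The let-7e call was lost without control replicate 1, 2 or 3 or let-7e replicate 1, 2 or 4 (edgeR adjusted p = 0.0547 to 0.0862). Tested within a run, the fall with let-7e was called in neither ID run.

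Ndufa3 encodes a small single-span subunit of the membrane arm, near its junction with the matrix arm (ENSMUSG00000035674, chr7:3617373-3620327, plus strand). It stood at 58.5, 62.6, 95.2 and 87.8 CPM with let-7d, at 62.4, 59.2, 95.4 and 85.9 CPM with let-7e, and at 78.8, 84.2, 108 and 93.3 CPM in the control. In ID run 1 both mimics were below both controls, while in ID run 2 the groups overlapped. The log2 fold change was -0.28 ± 0.070 with each mimic (edgeR adjusted p = 0.0129 for let-7d and 0.0175 for let-7e). Within ID run 2 it was -0.14 ± 0.081 and -0.15 ± 0.081, neither called, and within ID run 1 -0.43 ± 0.086 and -0.42 ± 0.085, both called. The let-7e call was lost without control replicate 1 or 2 or let-7e replicate 1, 2 or 4 (edgeR adjusted p = 0.0511 to 0.068).

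Ndufs3 encodes a core subunit of the matrix arm that joins early in assembly and lies near the ubiquinone site (ENSMUSG00000005510, chr2:90894634-90904827, minus strand). It stood at 76.3, 79.4, 56.9 and 57.1 CPM with let-7d, at 79.2, 75.7, 64.0 and 57.1 CPM with let-7e, and at 62.8, 75.4, 52.0 and 51.4 CPM in the control. Mimic libraries lay above both controls in each ID run, though the lower library of each mimic exceeded the higher control by under 1 CPM in ID run 1. It rose by 0.20 ± 0.058 with let-7e (edgeR adjusted p = 0.0391), while the value for let-7d was 0.16 ± 0.058 (edgeR adjusted p = 0.0727). The let-7e call held without control replicate 2 or let-7d replicate 2 or 3, and was lost without any other single library (edgeR adjusted p = 0.0501 to 0.128). The let-7d value passed without control replicate 2 (edgeR adjusted p = 0.0131), with upper-quartile scaling (0.0355) and with a 5 CPM filter (0.0436). Ndufs3 shares 88 bases with Kbtbd4 on the opposite strand, and without a stated strand setting reads there cannot be told apart.

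The assembly factor Ndufaf8 is known from human cells to stabilise NDUFAF5, which hydroxylates a core subunit (ENSMUSG00000078572, chr11:120098928-120100705, plus strand). It stood at 15.1, 15.4, 29.9 and 28.9 CPM with let-7d, at 14.9, 15.1, 27.3 and 22.5 CPM with let-7e, and at 15.9, 13.4, 21.7 and 19.0 CPM in the control. The groups overlapped in ID run 1, and in ID run 2 every mimic library was above both controls. The rise with let-7d was 0.32 ± 0.096 (edgeR adjusted p = 0.0313), made up of 0.53 ± 0.10 within ID run 2 and 0.049 ± 0.12 within ID run 1. The difference between the runs was 0.48 ± 0.16 and missed the threshold (edgeR adjusted p = 0.193). With let-7e the value was 0.17 ± 0.096 (edgeR adjusted p = 0.304). The call for let-7d was lost without any 1 of control replicates 3 and 4 or let-7d replicates 3 and 4 (edgeR adjusted p = 0.0695, 0.114, 0.101 and 0.0845).

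Ndufaf7, an arginine methyltransferase, is the family member with the 8-mer printed above (ENSMUSG00000024082, chr17:78937136-78948052, plus strand). It stood at 18.9, 21.9, 21.7 and 23.2 CPM with let-7d, at 20.7, 19.8, 22.6 and 22.3 CPM with let-7e, and at 23.6, 25.1, 24.6 and 25.0 CPM in the control. All 8 mimic libraries lay below all 4 controls. It fell by 0.19 ± 0.062 with let-7d (edgeR adjusted p = 0.0430), and with let-7e the value was -0.20 ± 0.061 (edgeR adjusted p = 0.0512), so nearly equal values fell on opposite sides of the threshold. The let-7e value passed with RLE scaling, DESeq2 or a 5 CPM filter (adjusted p = 0.0457, 0.0469 and 0.0405) and without let-7d replicate 1 (edgeR adjusted p = 0.048). The let-7d call was lost without control replicate 1, 2 or 4, let-7d replicate 1 or 3, or let-7e replicate 1, 2 or 4 (edgeR adjusted p = 0.0549 to 0.129). Ndufv1, the other gene with a 3′UTR match, had log2 fold changes of -0.043 with let-7d and -0.073 with let-7e, neither called.

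**Figure D2:**
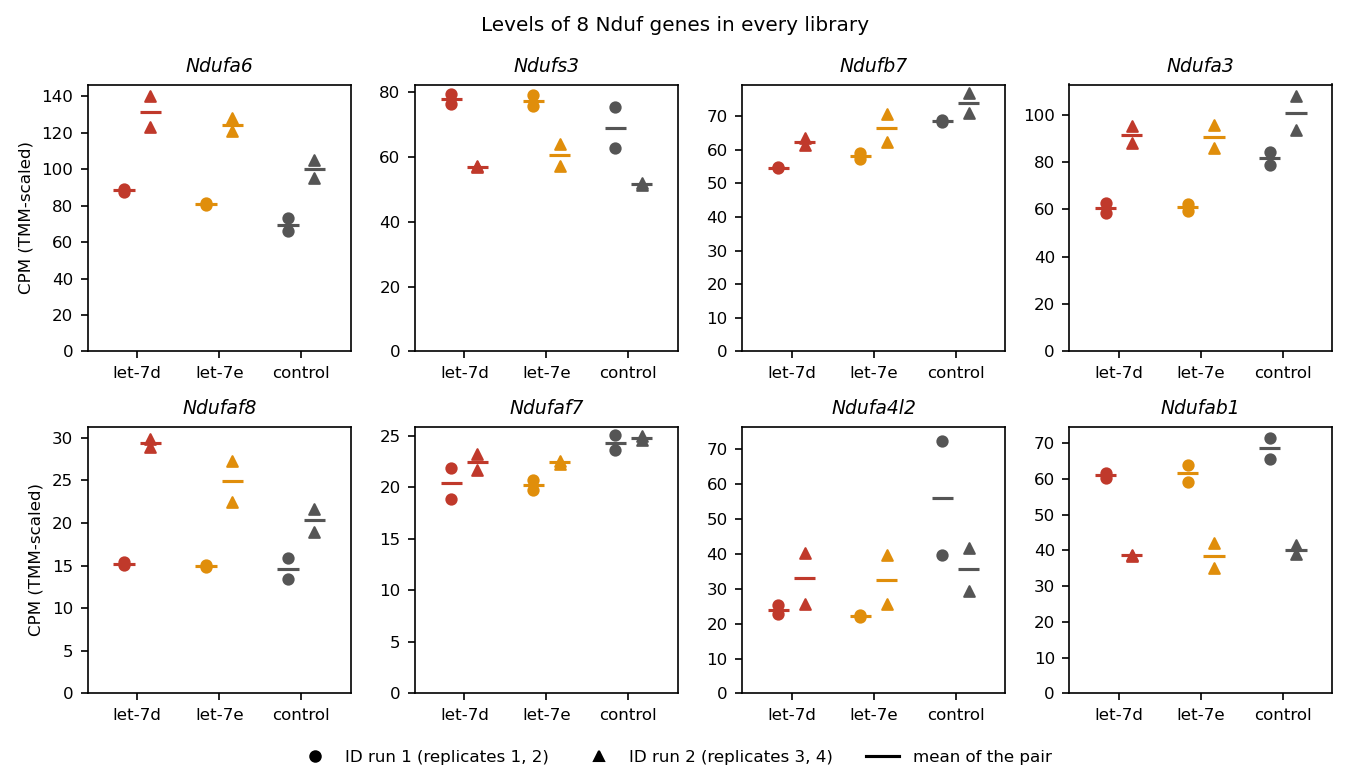
TMM-scaled CPM (y axis, from 0) of 8 Nduf genes in every library with the let-7d mimic, the let-7e mimic and the negative control; circles are ID run 1, triangles ID run 2, and bars the mean of each pair. For Ndufa6 both mimics lie above the control in each run, for Ndufb7 and Ndufaf7 below it, and for Ndufa4l2 control replicate 2 at 72.5 CPM stands above all other libraries.

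Libraries of a mimic stood apart from both controls in each of the 2 runs for few members. With let-7d, Ndufa6 and Ndufs3 were above and Ndufab1, Ndufaf7 and Ndufb7 below, 2 and 3 of 47, against 10.4% and 13.4% of all genes. With let-7e, 2 were above (Ndufa6, Ndufs3) and 2 below (Ndufaf7, Ndufb7), against 8.70% and 10.4% of all genes. Ndufab1, which is both the mitochondrial acyl carrier protein of lipoate synthesis and a subunit of complex I, had 60.4, 61.8, 38.7 and 38.5 CPM with let-7d, 64.0, 59.1, 42.1 and 35.0 CPM with let-7e, and 65.7, 71.4, 41.5 and 39.0 CPM in the control. Its log2 fold change was -0.11 with each mimic and was not called (edgeR adjusted p = 0.219 and 0.306).

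Ndufa4l2, a hypoxia-induced paralog of Ndufa4, had the lowest fold changes of the family without a call. It stood at 22.7, 25.4, 40.3 and 25.6 CPM with let-7d, at 22.0, 22.5, 39.7 and 25.5 CPM with let-7e, and at 39.7, 72.5, 41.6 and 29.5 CPM in the control. Replicate 3 was above replicate 4 in all 3 groups, and control replicate 2 was the highest library of all. The log2 fold change was -0.66 ± 0.25 for let-7d and -0.72 ± 0.25 for let-7e (edgeR adjusted p = 0.0794 and 0.0798). Without control replicate 2 it was -0.33 ± 0.18 and -0.39 ± 0.18, not called. It was called without control replicate 4 (edgeR adjusted p = 0.0195 for let-7d and 0.0185 for let-7e), for let-7d without let-7d replicate 3 (0.0318) and for let-7e without let-7e replicate 3 (0.029). Within ID run 2 it was -0.11 ± 0.26 and -0.12 ± 0.26, and within ID run 1 -1.20 ± 0.27 and -1.32 ± 0.27, both called (edgeR adjusted p = 0.0123 and 0.00951). Ndufa4 itself, the family member with the highest level per length, had 147, 150, 195 and 186 CPM with let-7d, 147, 133, 197 and 181 CPM with let-7e, and 150, 145, 200 and 178 CPM in the control, and the groups overlapped in both runs.

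The let-7d and let-7e mimics were then set against each other. None of the 47 genes was called, and none had an unadjusted p under 0.05 in edgeR (9.31% of all genes); limma-voom and DESeq2 called none either. The background of this comparison is 0.152% of all genes called. Differences ranged from -0.21 (Ndufaf6) to 0.15 (Ndufaf8), with a median of 0.024. For Ndufa6 the difference was 0.11 ± 0.054 (edgeR adjusted p = 0.578). A p above the threshold does not show that the mimics act alike.

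Within the runs, the mimic libraries sat lower against their controls in ID run 1 than in ID run 2 for most of the family. Structural subunits summed, in ID run 1, to 3300 and 3440 CPM with let-7d, 3320 and 3220 CPM with let-7e, and 3530 and 3690 CPM in the control. In ID run 2 the sums were 3450 and 3330 CPM with let-7d, 3530 and 3260 CPM with let-7e, and 3510 and 3160 CPM in the control. The mimic libraries were thus all below both controls in ID run 1, and the groups overlapped in ID run 2. In ID run 2 the sum of replicate 3 was above that of replicate 4 in every group. A pairing of these replicates is not stated, so the groups were compared unpaired.

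Gene by gene, both let-7e libraries lay below both controls for 35 of the 47 genes in ID run 1, against 27.0% of all genes, and for 3 in ID run 2, against 21.7%. Both let-7d libraries lay below both controls for 25 genes in ID run 1, against 27.6% of all genes, and for 4 in ID run 2, against 27.6%. The genes share the same 2 control libraries of a run, so the members' positions are not independent of each other. The median log2 fold change within ID run 2 was 0.014 with let-7d and 0.015 with let-7e, and within ID run 1 it was -0.091 and -0.15; over all genes the 4 medians lay between -0.012 and 0.0012.

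In tests within a run, from the fit with an interaction, 2 genes rose and 1 fell with let-7d in ID run 2 (8.56% of all genes called, 3.29% as higher and 5.26% as lower). In ID run 1, 1 rose and 5 fell (10.9% called, 4.59% as higher and 6.28% as lower). Those that fell in ID run 1 were Ndufa3, Ndufb7, Ndufb2, Ndufc1 and Ndufa4l2. With let-7e, 1 rose (Ndufa6) in ID run 2, where 2.48% of all genes were called, 0.914% as higher and 1.56% as lower. In ID run 1, 3 fell (Ndufa3, Ndufc1 and Ndufa4l2), where 7.12% were called, 3.10% as higher and 4.02% as lower. Ndufc1, a membrane-arm subunit, had 48.0, 49.9, 65.2 and 64.2 CPM with let-7d, 48.5, 46.3, 67.0 and 62.8 CPM with let-7e, and 58.6, 60.2, 65.5 and 54.6 CPM in the control. Ndufb2, also of the membrane arm, had 37.4, 37.6, 54.3 and 55.0 CPM with let-7d, 40.2, 39.8, 60.2 and 55.7 CPM with let-7e, and 46.4, 48.7, 54.3 and 48.8 CPM in the control. For both genes the mimics were below the controls in ID run 1 and above the lower control in ID run 2.

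The test of the difference between the runs called none of the 47 genes for either mimic by edgeR, DESeq2 or limma-voom, against an edgeR background of 0.241% of all genes for let-7d and 0.00635% for let-7e. At an unadjusted p under 0.05 edgeR had 10 genes for let-7d (13.6% of all genes) and 7 for let-7e (8.87%), and the smallest adjusted p was that of Ndufb2 with let-7d (0.42 ± 0.10, edgeR adjusted p = 0.0827). Without control replicate 1 the test called Ndufa4l2 for both mimics (1.48 ± 0.33 for let-7d and 1.59 ± 0.33 for let-7e, edgeR adjusted p = 0.0468 and 0.0392), outside the rule for named genes. The difference, ID run 2 minus ID run 1, was positive for 40 of 47 genes with let-7d (median 0.099, all genes -0.018). With let-7e it was positive for 45 of 47 (median 0.16, all genes -0.0018). It was also positive with let-7e for 4 of 4 genes of complex II and 9 of 9 of complex III (medians 0.13 and 0.15). For complexes IV and V it was positive for 11 of 12 and 15 of 16 (medians 0.23 and 0.14). With let-7d these counts were 1, 7, 9 and 12 (medians -0.013, 0.044, 0.2 and 0.05). Of 5 mitochondrially encoded ND subunits, 0 were positive with let-7d and 1 with let-7e. On simulated data for the let-7d run difference, the same test recovered 7.5% of genes changed by 0.5 and 66.5% of genes changed by 1 on the log2 scale. The simulation changed 200 genes drawn from the whole table, with spread taken from the fit without interaction. Recovery for the Nduf genes, or for smaller differences, was not simulated. Summed smooth muscle and pericyte markers were lower in mimic libraries than in the control in both runs. In ID run 2 the sums were 4780 to 5210 CPM and 6110 to 6380 CPM. In ID run 1 they were 2520 to 2830 CPM and 3040 to 3990 CPM. Singly, 0 of the 6 were called with let-7d in ID run 2 and 1 fell with let-7e (medians -0.21 and -0.12). There, 1 of the 6 lay above 0 with each mimic, and 2 had an unadjusted p under 0.05 in edgeR. In ID run 1, 2 fell with let-7d and 3 with let-7e (medians -0.37 and -0.41). Markers of preadipocytes and fibroblasts, 6 of 6 measured, summed to 1110 to 1390 CPM in mimic libraries and 821 to 1160 CPM in the control in ID run 2, and to 830 to 908 CPM and 649 to 655 CPM in ID run 1, and 3 of the 6 rose with each mimic over both runs. Macrophage markers summed to 41.8 to 123 CPM in mimic libraries and 24.7 to 33.5 CPM in the control in ID run 2, where 4 of 8 rose with let-7d (median log2 fold change 1.5) and none was called with let-7e by edgeR (4 at an unadjusted p under 0.05). In ID run 1 those sums overlapped, and 2 of 8 fell with each mimic. The part of these markers in the results was not tested. In such bulk samples fewer cells of a type and less RNA per cell cannot be told apart.

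**Figure D3:**
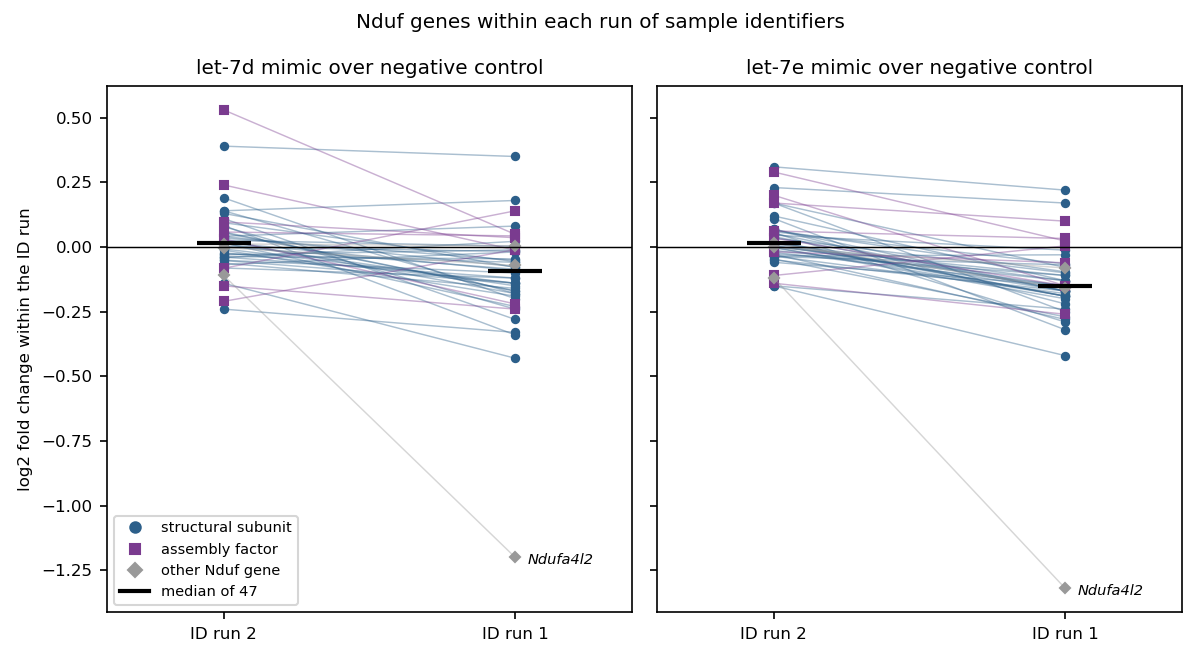
Log2 fold change over the negative control (y axis) of the 47 Nduf genes within ID run 2 and within ID run 1, for the let-7d mimic and the let-7e mimic; lines join a gene's 2 values, and black bars are medians. Medians lie at 0.014 and 0.015 in ID run 2 and at -0.091 and -0.15 in ID run 1.

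The ID runs themselves were compared next. Of the 47 genes, 29 were higher and 14 lower in ID run 2. Among all genes edgeR called 81.7%, 41.7% as higher and 40.0% as lower. The members thus leaned towards higher levels in ID run 2, and whether their shares differ from the background was not tested. Of the 7 core subunits, 5 were lower and 2 higher in ID run 2 (median -0.41). Of the 9 matrix-arm accessory subunits, 7 were higher and 1 lower (median 0.45), and of the 19 in the membrane arm 12 were higher and 6 lower (median 0.19). Of the 8 assembly factors, 6 were higher and 1 lower (median 0.40). The difference between roles was not tested.

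Ndufv1, which binds FMN and NADH at the entry of electrons, ranged from 88.8 to 98.7 CPM over the 6 ID run 2 libraries (median 94.3) and from 188 to 221 CPM over the 6 of ID run 1 (median 201). The runs did not overlap, and the difference was -1.10 ± 0.043 (edgeR adjusted p = 4.36e-13). Ndufs1, the largest iron-sulfur subunit, had 99.9 to 107 CPM (median 103) in ID run 2 and 175 to 197 CPM (median 190) in ID run 1 (-0.86 ± 0.040, edgeR adjusted p = 3.30e-12). Ndufa10, a membrane-arm subunit, had 96.4 to 104 CPM (median 102) in ID run 2 and 155 to 173 CPM (median 165) in ID run 1 (-0.70 ± 0.039, edgeR adjusted p = 3.40e-11). Ndufa13, also known as GRIM-19, went the other way, with 146 to 167 CPM (median 156) in ID run 2 and 89.2 to 106 CPM (median 92.7) in ID run 1 (0.73 ± 0.047, edgeR adjusted p = 2.85e-10). Subunits of the same complex thus differed between the runs in opposite directions, and for these 4 genes the runs did not overlap. Ndufa13 overlaps Yjefn3 on the same strand, and reads shared by both cannot be assigned with certainty. Over whole gene spans, introns included, other members described here also overlap annotated genes. Ndufs1 shares 14695 bases with Ino80dos and Ndufab1 shares 2829 with Gm44986, both on the opposite strand. Ndufb2 shares 4022 bases with Gm42420 on the same strand and 146 with Braf on the opposite strand.

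Between the runs, the difference went with transcript length. Over the 47 genes, Pearson's r between the log2 length of the principal transcript and the run difference was -0.40 and Spearman's rho -0.36; over all 15742 named genes they were -0.27 and -0.31. These are correlations across genes of the same 12 libraries, given as a description, and genes are not independent replicates. Of the 24 shorter members, 18 were higher and 5 lower in ID run 2 (median 0.36), and of the 23 longer ones 11 were higher and 9 lower (median 0.10). The part of length, of the adipocyte markers or of the identifiers' origin in the run difference was not tested, and the last of these cannot be told apart from the run.

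**Figure D4:**
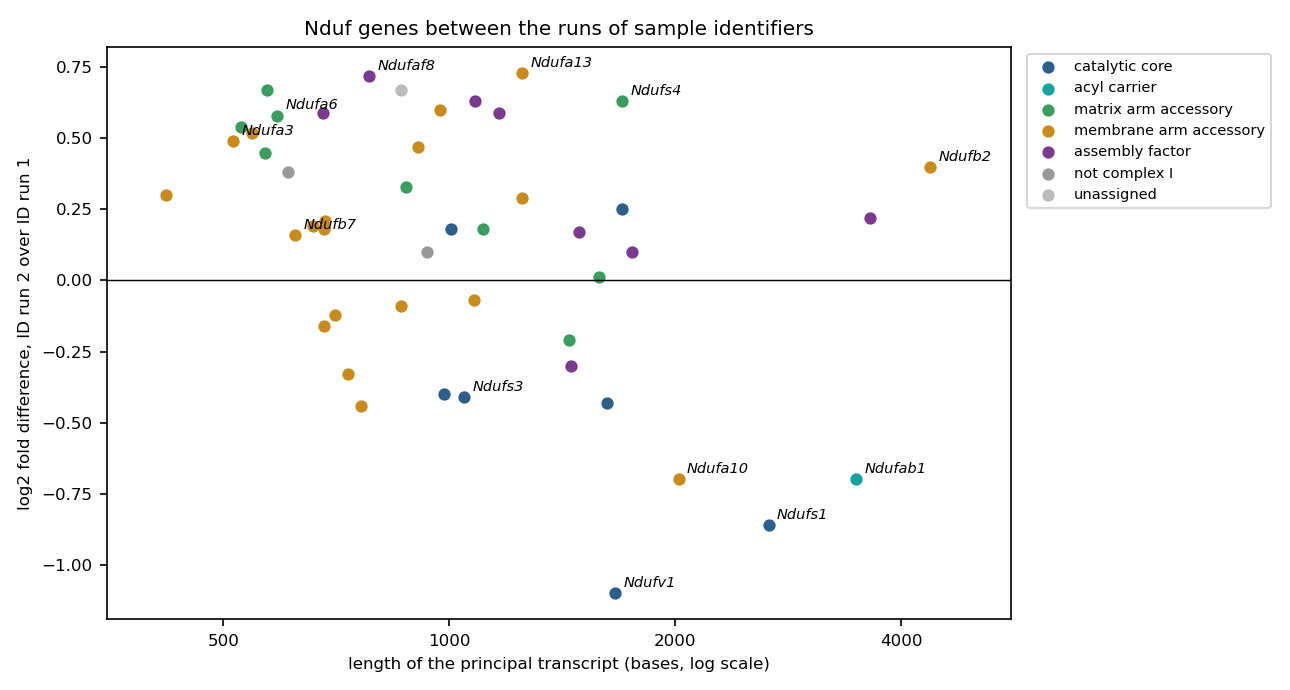
Log2 fold difference of ID run 2 over ID run 1 (y axis) against principal transcript length (x axis, log scale) for the 47 Nduf genes, coloured by role. Shorter transcripts lie mostly above 0, and the lowest points, Ndufv1, Ndufs1, Ndufa10 and Ndufab1, lie to the right of the median length of 971 bases.

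Levels between genes were compared per kilobase of transcript. Per kilobase of the principal transcript, averaged over the 12 libraries, Ndufa4 was highest at 275 CPM per kb, followed by Ndufa7 at 217, Ndufb9 at 195 and Ndufa2 at 178. The 8 assembly factors lay between 7.42 (Ndufaf4) and 30.1 CPM per kb (Ndufaf2). The lowest core subunit, Ndufs1, was at 54.6 CPM per kb. Matrix-arm accessory subunits lay between 40.2 (Ndufs4) and 217 (Ndufa7), and membrane-arm accessory subunits between 11.0 (Ndufb2) and 195 (Ndufb9). Every assembly factor was thus below every core subunit. The order depends on the length used: per kilobase of merged exons Ndufa2 was first at 178 and Ndufa4 was 8 in rank at 121, while assembly factors lay between 6.41 and 23.9 and the lowest core subunit was at 18.0, so that the 2 ranges then overlapped.

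Of 40 Nduf genes with a promoter in RefSeq (250 bases before to 50 after the start, GRCm38.p6), 10 (25.0%) held the NRF1-type motif GCGCANGCG, against 14.3% of 11240 genes of the table. The YY1-type motif AAGATGGCG was in 6 (15.0%), against 3.25%, and the ETS-type motif CCGGAAGT in 1 of 40, against 8.57%. Both strands were searched for each. NRF1 and YY1 are transcription factors known to act at genes of the respiratory chain. Windows of 30 bases around the match, in capitals, are shown for the 3 members that rose with a mimic, each of which held a different motif.
Ndufa6: cgtggcaccgCGCGTGCGCacgctgaaggg
Ndufaf8: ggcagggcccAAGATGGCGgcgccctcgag
Ndufs3: gcacatttccACTTCCGGtccgtgcccttg
The windows lie at chr15:82354248-82354277 (minus strand), chr11:120098934-120098963 (plus strand) and chr2:90904702-90904731 (minus strand); the Ndufa6 and Ndufs3 matches read in reverse complement. The promoters of Ndufb7, Ndufa3 and Ndufaf7, which fell, held none of the 3 motifs. Nothing follows from a match or its absence about the binding of a factor.

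Other genes of the respiratory chain were set beside the family. Over all genes, 16.2% were called with let-7d and 9.50% with let-7e. Of the mitochondrially encoded ND subunits, 5 of the 7 listed were tested and none was called with either mimic by edgeR, DESeq2 or limma-voom (0 at an unadjusted p under 0.05 in edgeR), with medians of 0.035 with let-7d and 0.0022 with let-7e. With let-7d all 5 lay below 0 in ID run 2 (median -0.12) and above 0 in ID run 1 (median 0.19), and none was called in either run (0 in ID run 2 and 1 in ID run 1 at an unadjusted p under 0.05 in edgeR). mt-Nd1 had log2 fold changes of -0.076 and -0.10, and mt-Nd6 0.079 and 0.11. Of 11 tested assembly factors not named Nduf, none was called by edgeR, DESeq2 or limma-voom (at an unadjusted p under 0.05, 3 for let-7d and 1 for let-7e). Dmac1 and Ecsit came nearest, Dmac1 at 0.22 ± 0.078 and Ecsit at -0.18 ± 0.068 with let-7d. Within ID run 2, Dmac1 rose (0.36 ± 0.095, edgeR adjusted p = 0.0314) and Ecsit fell (-0.30 ± 0.082, edgeR adjusted p = 0.0374) with let-7d, while within ID run 1 they were at 0.063 and -0.067, not called.

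Complex II had 0 of 4 genes called with either mimic by edgeR, DESeq2 or limma-voom (0 with let-7d and 1 with let-7e at an unadjusted p under 0.05 in edgeR), and its Sdhb subunit had -0.097 and -0.14. In complex III, 1 of 9 genes fell with let-7d, the core subunit Uqcrc1 (-0.26 ± 0.058, edgeR adjusted p = 0.00598), and its value with let-7e was -0.18 ± 0.058 (edgeR adjusted p = 0.0671). Within ID run 2, 1 of the 9 fell with let-7d and 0 with let-7e, and within ID run 1, 1 and 2 fell. Uqcrq was among those of ID run 1 with each mimic (-0.34 ± 0.070 and -0.29 ± 0.070). Complex IV had 5 of 12 genes lower with let-7d and 3 of 12 with let-7e, with medians of -0.14 and -0.11. Over all genes 9.81% and 5.69% were called lower. In ID run 2, 1 fell with each mimic (medians -0.034 and 0.027), against 5.26% and 1.56% of all genes. In ID run 1, 6 fell with let-7d and 5 with let-7e (median -0.25 each), against 6.28% and 4.02% of all genes. Whether complex IV differs from that background was not tested. Its tissue-restricted isoform Cox8b fell by 0.93 ± 0.15 and 0.99 ± 0.14 (edgeR adjusted p = 4.86e-04 and 4.03e-04), and Cox7a1 by 0.51 ± 0.12 and 0.47 ± 0.12 (edgeR adjusted p = 0.0107 and 0.0230). Cox8b fell in both runs with each mimic. Its levels in ID run 2 were low, at 0.864 to 1.2 CPM with the mimics and 2.0 to 2.89 CPM in the control. Cox7a1 was at -0.28 and 0.085 within ID run 2, neither called, at 1.85 to 2.78 CPM in all groups, and at -0.59 and -0.70 within ID run 1, both called. In complex V, 1 of 16 genes was called, Atp5g2 with let-7e (-0.21 ± 0.059, edgeR adjusted p = 0.0378). Whether complex I differed from these complexes was not tested.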

How the data were processed

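Members, roles and lists were chosen with earlier results of these data known. All 47 members enter the counts and medians, and the values of 1 core subunit are not reported here. Gene counts are whole numbers per Ensembl gene, as deposited by the authors; the submitters' processing notes name STAR and GRCm38.p6. How reads were assigned to genes, with which tool, strand setting or rule for multiple hits, is not given in the sources used here. Genes of low CPM had been removed, per the name of the deposited table, at a threshold not given there. A second deposited table, named RPKM, was not used, because its values did not match the counts of the genes they stand beside.

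Symbols came from GENCODE vM21 (15742 of 15754 identifiers named). Counts were scaled by TMM and tested with edgeR's quasi-likelihood test (edgeR 4.0.16, R 4.3.3), with 8 residual degrees of freedom for the fit of group and ID run and 6 with their interaction. Adjusted p-values are Benjamini-Hochberg over all genes, two-sided, called under 0.05. CPM are TMM-scaled. limma 3.58.1 (voom) and DESeq2 1.42.0 served as alternatives. On simulated counts the let-7d comparison recovered 66.2% of genes changed by 0.5 and 87.4% changed by 1 on the log2 scale. The 200 changed genes were drawn from the whole table and not from the Nduf genes. The principal-transcript length, the search of whole transcripts and the promoter motifs were chosen after the data were seen. Genes named in full are those called in a comparison between groups, over both runs or within a run, and the member of each role with the smallest p. Ndufa4 was added for its level, and for the ID runs the 4 genes with the smallest p. Replicates of a group and run differed by more than sampling noise (chi-square per degree of freedom 2.31 to 9.92). Over all genes, same-numbered replicates did not deviate together within a run beyond a correlation of 0.188. Whether they were paired is not stated in the labels. The design text gives an n of 6, while 4 libraries per group were analysed.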

Additional observations from a re-analysis of the deposited data

Results flagged for a closer look

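Of 42 groups of 4 libraries checked for a sample far from the others, 1 stood out. Chance alone gives about 1 in 20 if all 4 libraries come from 1 distribution. Each group mixes 2 libraries of each ID run, so that rate and the critical value need not hold here. Ndufa4l2 in let-7d replicate 3 was at 40.3 CPM, against 22.7 to 25.6 CPM in the other let-7d libraries, and its gap to the nearest divided by the group's range was 0.835, above Dixon's critical value for 4 samples. In the same ID run, let-7e replicate 3 was at 39.7 CPM and control replicate 3 at 41.6 CPM, so replicate 3 was above replicate 4 in every group.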

How the results depend on the processing

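Nduf genes called with let-7d (5) numbered 0 without the ID run term, 2 in ID run 2 alone and 3 with the 8 libraries compared; with let-7e (4) they numbered 0, 0 and 2 under these, and 9 in ID run 1 alone. Leaving out 1 library gave 4 to 5 for let-7d and 1 to 6 for let-7e, with 1 left without control replicate 1, let-7e replicate 1, 2 or 4, and 2 without control replicate 2 or 3. Over all genes, let-7d (2555) gave 7 without the run term, 740 in ID run 2 and 1781 to 2535 with 1 library left out. let-7e (1496) gave 0, 197 and 844 to 1606, with 844 and 874 without let-7e replicates 1 and 2. let-7d against let-7e (24) gave 115 by DESeq2, 1 without the run term, 5 with the replicate block, 2 and 1 in ID runs 1 and 2, 98 with 8 libraries, and 3 to 38 with 1 left out. The let-7d run difference (38) gave 195 by DESeq2, 16 by limma-voom, 12 with a 5 CPM filter and 0 to 219 with 1 left out; that of let-7e (1) gave 2 by upper-quartile scaling, 50, 0 and 0 under these, and 0 to 153. Both differences called 1 Nduf gene, Ndufa4l2, without control replicate 1 and otherwise 0. The Nduf count between the runs (43) was 41 to 43 throughout, and 12589 to 12798 of all genes with 1 left out. The causes were not tested.

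The small fold change of Ndufa4 with let-7d turned negative with RLE scaling and DESeq2 (-0.0032 each), and without let-7d replicate 2 (-0.00074), let-7d replicate 3 (-4.2e-05) or control replicate 4 (-0.029; range with 1 library left out up to 0.036). That of Ndufb1-ps turned positive in ID run 2 (0.016 with let-7d, 0.015 with let-7e) and, with let-7d, without control replicate 1 (0.023; range with 1 left out from -0.067). The replicate block, in place of the run term, called 6 Nduf genes with let-7d and 5 with let-7e. Ndufa4l2 was added in each (edgeR adjusted p = 0.0402 and 0.0413). No label says whether same-numbered replicates were paired. Ndufa6 kept its let-7d call in 22 of 23 settings and Ndufb7 and Ndufa3 in 21; Ndufaf7 lost it in 13, Ndufaf8 in 7. With let-7e, Ndufs3 lost its call in 13 of 23, Ndufb7 in 9, Ndufa3 in 7 and Ndufa6 in 2. No scaling moved the median of all genes by over 0.1. Run differences rest on 2 libraries per group and run.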
